A study of Rattus norvegicus with 17 samples.

Results

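P2rx4 (ENSRNOG00000001300) and Apoc1 (ENSRNOG00000018426) were chosen by their deposited values, which were lower at Site #3 than at Site #1 and Site #2, and they are 2 of the 32494 genes listed. RNA-Seq was run on the hippocampus of wild-type control male Sprague Dawley rats, in 5 rats at Site #1, 6 at Site #2 and 6 at Site #3, with 1 library per rat. The study asked how far measurements of matched control tissue differ between laboratories. Rats of Site #1 and Site #2 came from Charles River, arrived at 8.3 weeks of age, were housed singly and were killed 18 to 19 days later, and their tissue was dissected in 0.9% saline. Rats of Site #3 came from Harlan (Envigo), arrived at 8.0 weeks, were housed double and were killed after 27 days, and their tissue was dissected in artificial cerebrospinal fluid. The breeding site, the chow there and in the laboratory, bubbling of the buffer and the day of weighing also differed at Site #3. All rats of a site shared these factors, so their parts in a difference of Site #3 from the other sites cannot be told apart. The values are on a log2 scale, were normalized between libraries before deposit, and hold no counts, so the depth of each library cannot be read from them.

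P2rx4 encodes a cation channel of the cell surface that opens when extracellular ATP binds. In the nervous system it is best known from microglia, the resident macrophages of the brain, where its level rises after nerve injury. Apoc1 encodes a small apolipoprotein that moves between lipoprotein particles and lies in a gene cluster with Apoe, the main apolipoprotein of the brain. The tissue was measured in bulk, so fewer cells of a type and less RNA per cell cannot be told apart.

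Replicate 1 of Site #3 stood apart from the other libraries in the most variable genes. Over the 500 genes with the highest variance, its root mean square deviation from the mean of the other libraries of its site was 1.04 log2 units, against 0.25 to 0.63 in the other 16 libraries. Over the 13679 genes that averaged 1 CPM or more after back-transformation, it was 0.22, close to the 0.20 of replicate 5 of Site #1. The Site #3 differences of P2rx4, Apoc1 and the called genes are therefore also given without it.

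P2rx4 had log2 values of 9.47, 9.46, 9.48, 9.82 and 9.54 in replicates 1 to 5 of Site #1, with a mean of 9.55 ± 0.15 (SD, n = 5). At Site #2 the lowest value was 9.37, the median 9.45 and the highest 9.65, with a mean of 9.46 ± 0.10 (SD, n = 6). At Site #3 the lowest was 9.06, the median 9.17 and the highest 9.22, with a mean of 9.15 ± 0.06 (SD, n = 6). The ranges of Site #1 and Site #2 overlapped, and every Site #3 library lay below all others, with a gap of 0.15 log2 units. Replicate 4 of Site #1 and replicate 3 of Site #2 were the highest libraries of their sites.

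Apoc1 had log2 values of 9.23, 9.25, 9.06, 9.43 and 9.35 in replicates 1 to 5 of Site #1, with a mean of 9.26 ± 0.14 (SD, n = 5). At Site #2 the values ran from 8.92 over a median of 9.12 to 9.41, with a mean of 9.12 ± 0.19 (SD, n = 6). At Site #3 they ran from 8.40 in replicate 1 over a median of 8.64 to 8.84 in replicate 2, with a mean of 8.64 ± 0.16 (SD, n = 6). Again the ranges of Site #1 and Site #2 overlapped, and the Site #3 libraries lay below all others, here with a gap of 0.07 log2 units.

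**Figure D1:**
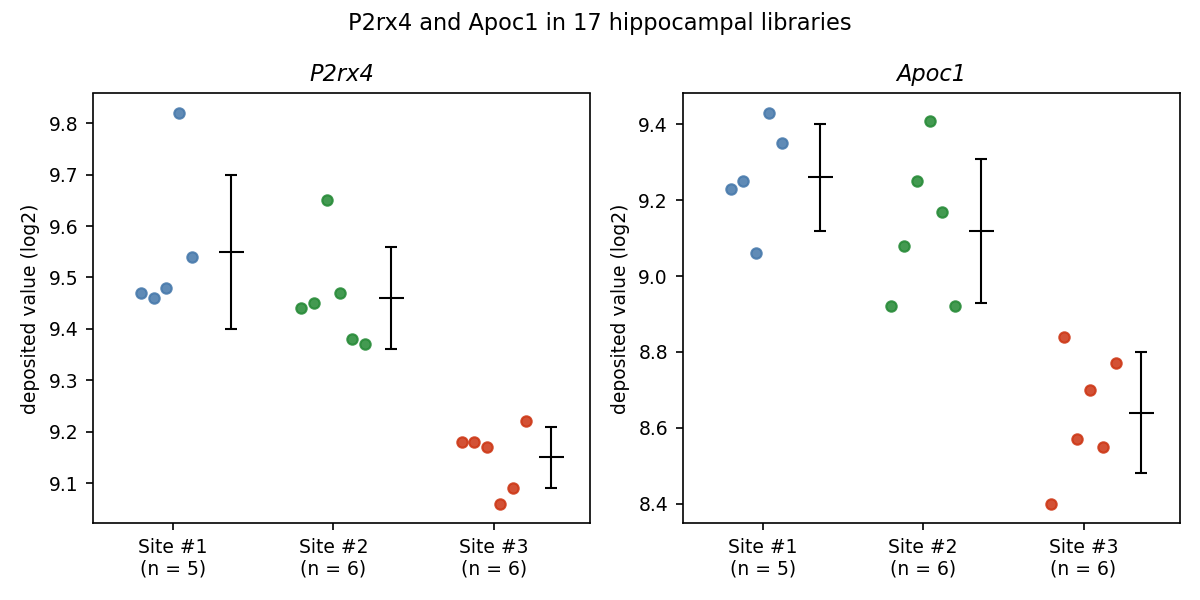
Deposited log2 values of P2rx4 and Apoc1 in each library by site, points in the order of replicate number, with the site mean and SD as black bars. For both genes all 6 Site #3 libraries lie below the 11 libraries of Site #1 and Site #2, whose ranges overlap.

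The position of the Site #3 values chose these genes, so what follows on Site #3 is a description without a test. P2rx4 was lower at Site #3 than at Site #1 by a log2 difference of -0.41 ± 0.07 (SE), a back-transformed level of 75.5% of that at Site #1. Against Site #2 the difference was -0.31 ± 0.05 (SE), or 80.6%. Without replicate 1 of Site #3 these differences were -0.41 and -0.32. The difference from Site #1 was also set in part by 1 library, since it was -0.34 without replicate 4 of Site #1.

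Apoc1 was lower at Site #3 than at Site #1 by a log2 difference of -0.62 ± 0.09 (SE), or 64.9% of the level there. Against Site #2 the difference was -0.48 ± 0.10 (SE), or 71.6%. Without replicate 1 of Site #3, its lowest library, the differences were -0.58 and -0.43.

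Of the 22664 genes tested, 39 (0.172%) had every Site #3 library below all 11 others, and 39 (0.172%) had every Site #3 library above them. P2rx4 and Apoc1 are among the former by their choice. Among the 13679 genes that averaged 1 CPM or more, Apoc1 had the 9th lowest difference of Site #3 from Site #1 and the 15th lowest from Site #2. P2rx4 stood at ranks 21 and 54. In that set 35 genes had all Site #3 libraries below the others, and P2rx4 and Apoc1 were the only ones of them that could be paired with a symbol here.

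**Figure D2:**
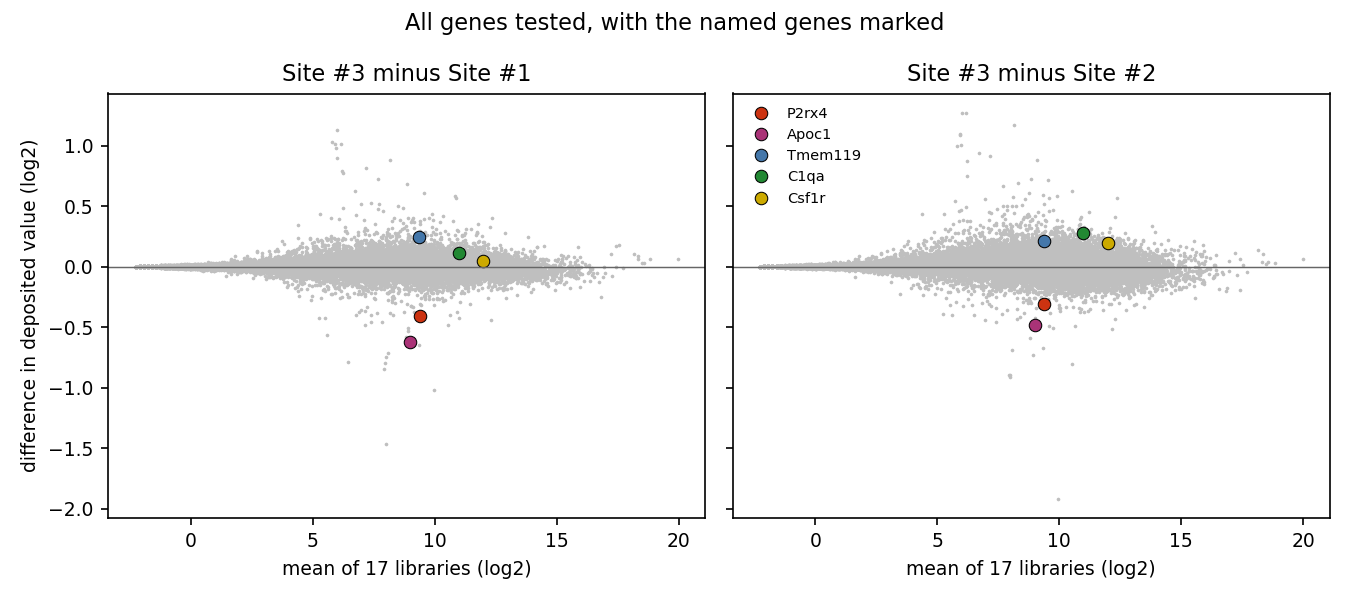
Difference of Site #3 from Site #1 (left) and from Site #2 (right) on the log2 scale against the mean log2 value of the 17 libraries, with 1 grey point per gene tested. P2rx4 and Apoc1 lie below most genes of a like level in both panels, and the microglial markers Tmem119, C1qa and Csf1r lie above 0.

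The comparison of Site #1 with Site #2 did not enter the choice. P2rx4 was lower at Site #2 by a log2 difference of -0.09 (SE 0.07, 95% confidence interval -0.25 to 0.06; limma, unadjusted p = 0.209, adjusted p = 0.819). Without replicate 4 of Site #1 this difference was -0.03 (limma, adjusted p = 0.905). Apoc1 was lower at Site #2 by -0.14 (SE 0.09, 95% confidence interval -0.35 to 0.07; limma, unadjusted p = 0.161, adjusted p = 0.817). Neither difference passed the threshold of 0.05. Among all genes tested, 0 (0%) passed it in this limma comparison, and 1527 (6.74%) had an unadjusted p under 0.05. The order of the site means was Site #1, Site #2 and Site #3 for both genes, and the first 2 did not differ beyond the spread between rats.

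The spread of P2rx4 between rats of a site was close to that of other genes of its level. Its pooled SD within sites was 0.11, against a median of 0.09 for the 2167 genes whose mean lay within 0.5 log2 units of its own, which placed it at percentile 63.5. Apoc1 varied more, with a pooled SD of 0.17 against a median of 0.10 for 1993 genes of like level, at percentile 87.6. The Site #3 values that chose the genes enter these SDs, and their place below all others favours a small spread, so the percentiles are a description. For P2rx4 the pooled SD also joins unlike sites, with 0.15 at Site #1 and 0.06 at Site #3.

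Because Site #3 forms a separate cluster for both genes by their choice, the relation between them was measured after the site mean had been subtracted from each library. Over the 17 libraries, P2rx4 and Apoc1 had a Pearson r of 0.46 (permutation within sites, p = 0.0746; adjusted p = 0.522 over 7 relations) and a Spearman rho of 0.43 (permutation p = 0.0906; adjusted p = 0.634). Without the 2 libraries whose P2rx4 value lay farthest from the median, replicate 4 of Site #1 and replicate 3 of Site #2, r was 0.30 (permutation p = 0.316). Within Site #2 alone r was 0.47 (n = 6, exact permutation p = 0.362) and rho was 0.66 (exact p = 0.175). Within Site #3 alone r was 0.15 (n = 6, exact permutation p = 0.753) and rho was 0.43 (exact p = 0.419). A relation between the 2 genes among rats of the same site thus did not pass the test. Correlations within 1 site were computed only for the sites with 6 rats, so none is given for the 5 rats of Site #1, where replicate 4 was highest in both genes.

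The 3 genes of microglia named by the rule of choice were read beside them. Tmem119 encodes a membrane protein typical of microglia, C1qa a chain of the complement protein C1q, and Csf1r the receptor for the growth factors CSF1 and IL-34. With 5, 6 and 6 rats at Sites #1, #2 and #3, the mean log2 value and SD of Tmem119 were 9.26 ± 0.14, 9.28 ± 0.35 and 9.50 ± 0.15. C1qa had 11.01 ± 0.11, 10.85 ± 0.16 and 11.12 ± 0.04 in the same order. Csf1r had 12.03 ± 0.11, 11.88 ± 0.09 and 12.08 ± 0.06. All 3 means were highest at Site #3, where P2rx4 and Apoc1 had their lowest.

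**Figure D3:**
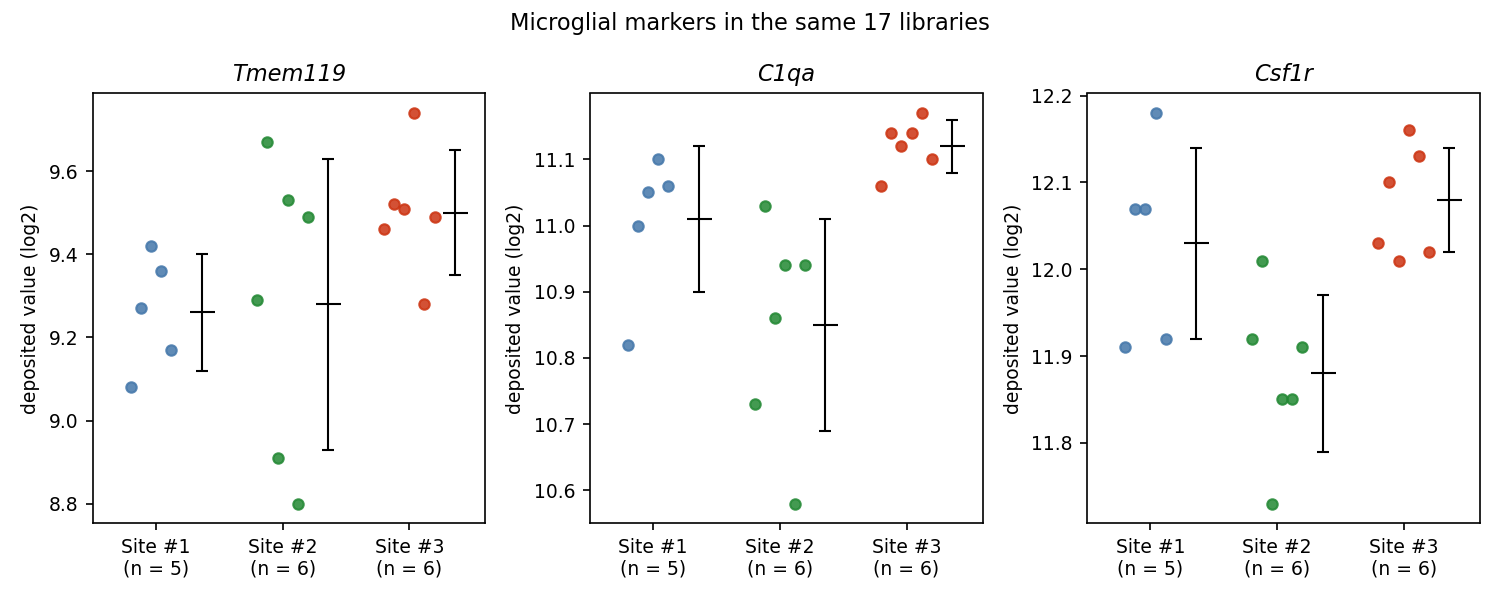
Deposited log2 values of Tmem119, C1qa and Csf1r in each library by site, with the site mean and SD as black bars. The Site #3 values overlap those of Site #1 for all 3 genes and, for Tmem119, span 9.28 to 9.74 beside 8.80 to 9.67 at Site #2. For C1qa all Site #3 values (11.06 to 11.17) lie above those of Site #2 (10.58 to 11.03). For Csf1r the lowest Site #3 value and the highest Site #2 value both round to 12.01.

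None of these 3 genes passed the threshold. Tmem119 was higher at Site #3 than at Site #1 by 0.24 (limma, adjusted p = 0.402) and than at Site #2 by 0.22 (limma, adjusted p = 0.514). The latter difference was 0.12 without replicate 5 of Site #2 and 0.14 without replicate 3 (limma, adjusted p = 0.700 and 0.704). C1qa was higher at Site #3 than at Site #2 by 0.27 on the log2 scale (limma, adjusted p = 0.0618), and passed without replicate 2 of Site #2 (0.31, limma, adjusted p = 0.0479), in the fit of all 17 libraries (adjusted p = 0.0443) and under the filter on mean CPM (adjusted p = 0.0337). In the other 15 of 18 alternatives it did not pass, with an adjusted p of up to 0.126, and against Site #1 its difference was 0.12 (limma, adjusted p = 0.525). Csf1r was higher than at Site #2 by 0.20 (limma, adjusted p = 0.0550), and passed without replicate 2 of Site #2 (0.22, limma, adjusted p = 0.0379), under quantile normalization (adjusted p = 0.0358) and under the filter on mean CPM (adjusted p = 0.0321). It did not pass in the other 15 of 18, with an adjusted p of up to 0.131. Its difference of Site #3 from Site #1 was 0.05 (limma, adjusted p = 0.836), and it was lower at Site #2 than at Site #1 by -0.15 (limma, unadjusted p = 0.0232, adjusted p = 0.683). P2ry13, an ADP receptor, Selplg, a selectin ligand, and Pycard, an inflammasome adaptor, complete the list of 6 microglial markers. In Site #1 vs Site #3, 0 of these 6 passed, beside 0.101% of all genes, and the median log2 difference was 0.07. At an unadjusted p under 0.05, 2 of the 6 were higher at Site #3 and 0 lower. Of all 22664 genes, 852 were higher and 999 lower (8.17% in either direction). In Site #2 vs Site #3, 0 passed, beside 1.05% of all genes, and the median was 0.18. At an unadjusted p under 0.05, 2 of the 6 were again higher at Site #3 and 0 lower. Of all genes, 1640 were higher and 1712 lower (14.8% in either direction). The median over all genes was 0.00 in both comparisons.

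The summed level of the 6 microglial markers, back-transformed and scaled to CPM, was 176, 195, 207, 215 and 192 in replicates 1 to 5 of Site #1. It ran from 163 to 205 at Site #2 and from 205 to 218 at Site #3. Csf1r was the most abundant of the 6, and none of them was below 1 CPM. The mean sum was 197 ± 14.9 at Site #1, 181 ± 15.8 at Site #2 and 210 ± 5.39 at Site #3 (SD, n = 5, 6 and 6). The part of these cells in the levels of P2rx4 and Apoc1 was not tested.

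Among rats of the same site, no relation of either gene with the 3 markers passed the test. P2rx4 had an r of -0.08 with Tmem119, 0.27 with C1qa and -0.01 with Csf1r (permutation p = 0.791, 0.377 and 0.979; adjusted p = 0.979 for each over 7 relations), and a rho of -0.10, 0.12 and -0.23 (permutation p = 0.709, 0.668 and 0.418; adjusted p = 0.754 for each). Apoc1 had an r of -0.05 with Tmem119, 0.16 with C1qa and -0.12 with Csf1r (permutation p = 0.865, 0.598 and 0.677; adjusted p = 0.979 for each), and a rho of 0.09, 0.25 and -0.13 (permutation p = 0.754, 0.347 and 0.633; adjusted p = 0.754 for each). Without the 2 libraries farthest from the median of the marker, r ranged from -0.05 to 0.33 over these 6 relations.

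All 6 values depended on single libraries. With 1 library left out at a time, the r of P2rx4 ran from -0.26 (without replicate 5 of Site #2) to 0.20 (without replicate 3 of Site #2) with Tmem119, and from 0.14 (without replicate 4 of Site #1) to 0.34 with C1qa. The r of Apoc1 ran from -0.25 (without replicate 4 of Site #2) to 0.05 (without replicate 3 of Site #2) with Tmem119, from 0.05 (without replicate 4 of Site #2) to 0.29 (without replicate 5 of Site #2) with C1qa, and from -0.32 (without replicate 4 of Site #1) to -0.02 (without replicate 3 of Site #2) with Csf1r. The value for P2rx4 with Csf1r moved most. Without replicate 4 of Site #1, which was high in both genes, r was -0.64 (adjusted permutation p = 0.130), and without replicate 3 of Site #2, high in P2rx4 and low in Csf1r, it was 0.30 (adjusted permutation p = 0.852). Within Site #3 it was -0.86 (n = 6, exact permutation p = 0.0292, adjusted p = 0.408 over 14 relations within single sites), with a rho of -0.60 (exact p = 0.242). Without replicates 4 and 5 of Site #3 it was -0.14 (n = 4). Within Site #2 it was -0.63 (n = 6, exact permutation p = 0.182) with a rho of -0.49 (exact p = 0.356), and -0.22 without replicates 2 and 3 (n = 4). Site #1 has no value of its own here, and its replicate 4 was its highest library in P2rx4 and in Csf1r. Apoc1 with Csf1r had an r of -0.55 within Site #2 (exact permutation p = 0.237), -0.91 there without replicates 2 and 3 (n = 4), and 0.24 within Site #3 (exact permutation p = 0.647). P2rx4 with C1qa had 0.21 within Site #2 (exact permutation p = 0.696), -0.61 within Site #3 (exact permutation p = 0.193), and -0.77 there without replicates 1 and 5 (n = 4). The r values over 4 libraries carry no test, and so few libraries cannot fix the size of a relation. None of the 14 relations within Site #2 or Site #3 passed after adjustment.

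**Figure D4:**
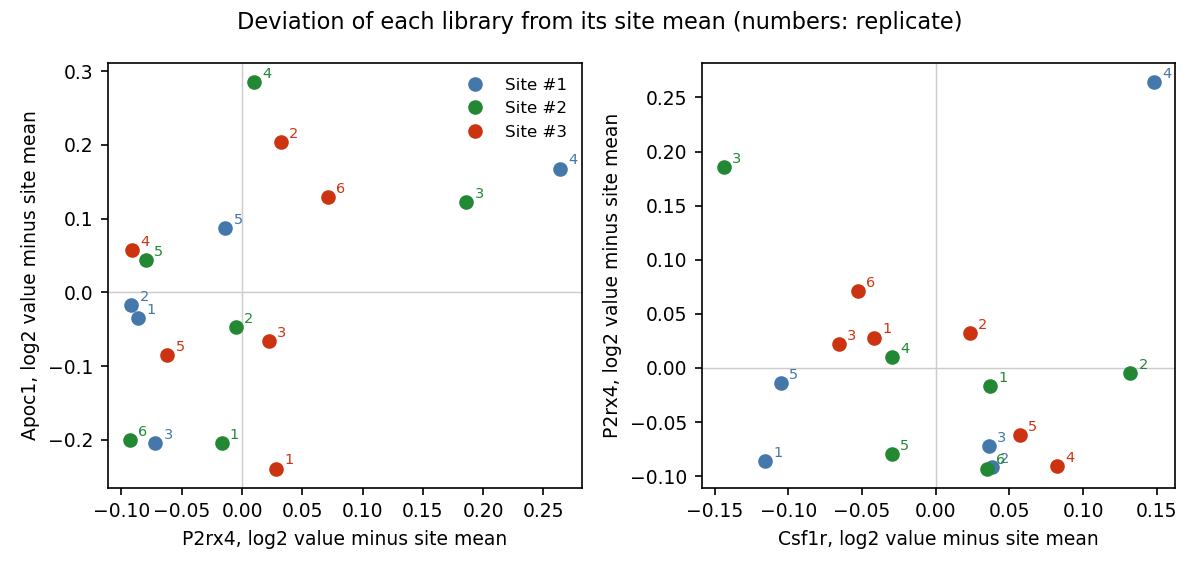
Each point is 1 library, as its log2 value minus the mean of its site, coloured by site and numbered by replicate: Apoc1 against P2rx4 (left) and P2rx4 against Csf1r (right). Replicate 4 of Site #1 lies at the upper right in both panels, and the Pearson r is 0.46 on the left and -0.01 on the right.

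The genes whose values followed those of P2rx4 most closely among rats of the same site were Pomc, the precursor of melanocortin peptides, with an r of 0.79, Tcf7l2, a transcription factor of the Wnt pathway (0.75), Slc24a1, an exchanger of sodium, calcium and potassium (0.74), Snai2, a transcription factor (0.74), and Fuca2, a fucosidase (0.69). For Apoc1 they were Trim8 (0.90), Rspo3, a secreted enhancer of Wnt signalling (0.81), Mphosph6 (0.74), Map2k5, a MAP kinase kinase (0.70), and Orai1, a calcium channel (0.69). These are the 5 highest among genes with a symbol, over 17 libraries with site means removed, from 13678 genes searched, and carry no test. Genes without a symbol ranked higher in part, since Pomc stood at rank 7 and Orai1 at rank 125. Under quantile normalization the r of Snai2 was 0.61. These r values were not recomputed with single libraries left out, so their dependence on 1 library was not tested. Apoc1 stood at rank 781 for likeness to P2rx4, and P2rx4 at rank 1515 for likeness to Apoc1.

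The gene lists that follow hold only genes that the tables of the study on methylation differences or cell type markers pair with a symbol, 1436 of the 22664 tested, so the shares over all genes beside them are not those of genes chosen alike. Of the 7 other genes of purinergic signalling that could be named, 0 passed in any of the limma comparisons. The background was 23 of 22664 genes (0.101%) in Site #1 vs Site #3, and 239 (1.05%) in Site #2 vs Site #3. At an unadjusted p under 0.05, 1 was higher and 1 lower at Site #3 than at Site #1, 1 was higher and 2 lower than at Site #2, and 1 was higher at Site #2 than at Site #1, beside 8.17%, 14.8% and 6.74% of all genes in either direction. The smallest adjusted p was that of Slc29a4, a transporter of monoamines and adenosine, which was lower at Site #3 than at Site #2 by a log2 difference of -0.14 (limma, adjusted p = 0.0618) and than at Site #1 by -0.12 (adjusted p = 0.501). P2rx7, an ATP-gated channel that needs far more ATP to open, had mean log2 values with SD of 8.05 ± 0.07, 8.02 ± 0.16 and 7.98 ± 0.14 at Sites #1, #2 and #3. P2rx5, of the same channel family, had 6.40 ± 0.12, 6.45 ± 0.06 and 6.30 ± 0.12, and its difference of -0.15 between Site #2 and Site #3 did not pass (limma, adjusted p = 0.210). P2ry2, a receptor for ATP and UTP, had 6.71 ± 0.08, 6.69 ± 0.08 and 6.59 ± 0.12, and P2ry13 had 7.46 ± 0.13, 7.50 ± 0.13 and 7.50 ± 0.12. Nt5e, the enzyme that makes adenosine from AMP outside the cell, had 9.21 ± 0.18, 9.40 ± 0.10 and 9.44 ± 0.17. Slc29a3, a nucleoside transporter of inner membranes, had 9.59 ± 0.10, 9.56 ± 0.06 and 9.70 ± 0.10. The median difference over the list was -0.06 against Site #1 and -0.03 against Site #2.

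Lipoprotein and lipid genes formed a list of 18. In Site #2 vs Site #3, 0 were called higher and 1 lower at Site #3, where 0.525% of all genes were called lower, and in Site #1 vs Site #3 0 of 18 were called, beside 0.0529% of all genes called lower. At an unadjusted p under 0.05, 0 of the 18 were higher and 1 lower at Site #3 than at Site #1, 3 were higher and 4 lower than at Site #2, and 1 was higher and 3 lower at Site #2 than at Site #1, where 8.17%, 14.8% and 6.74% of all genes had such a p in either direction. The called gene was Acsl1, an acyl-CoA synthetase, whose mean log2 value was 11.61 ± 0.05 at Site #2 and 11.42 ± 0.08 at Site #3 (SD, n = 6 each), a log2 difference of -0.19 (SE 0.04; limma, adjusted p = 0.0352). Its call was lost without replicates 2, 3, 4 or 6 of Site #2 or replicates 2, 4, 5 or 6 of Site #3, left out singly, where the largest adjusted p was 0.0825. It was also lost with the replicate block (limma, adjusted p = 0.0917). The difference of Acsl1 was -0.21 to -0.17 in the 18 alternatives. Lmf1, a maturation factor of lipases, was lower at Site #3 than at Site #2 by -0.17 (limma, adjusted p = 0.0538). Rxra and Nr1h2, partner receptors that bind lipid ligands, and Abcg1, a cholesterol exporter, were not called. Rxra was higher at Site #3 than at Site #2 by 0.21 (limma, adjusted p = 0.116), and its difference from Site #1 was -0.02 (limma, adjusted p = 0.955). The median over the list was -0.02 against Site #1 and 0.00 against Site #2.

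A separate list held 24 other microglial and myeloid genes, of which 10 were below 1 CPM. In it 2 were called higher at Site #3 than at Site #2 and 0 called lower, where 0.529% of all genes were called higher. In Site #1 vs Site #3 0 were called, beside 0.0485% of all genes called higher, and at an unadjusted p under 0.05 1 was higher and 1 lower, beside 8.17% of all genes in either direction. Itgad, an integrin subunit of macrophages, had 8.93 ± 0.08 at Site #2 and 9.30 ± 0.15 at Site #3 (SD, n = 6 each), a log2 difference of 0.37 (SE 0.07; limma, adjusted p = 0.0271). Its call was lost without replicates 2, 3, 4 or 6 of Site #2 or replicates 2, 4, 5 or 6 of Site #3, left out singly, where the largest adjusted p was 0.0636. The difference of Itgad was 0.33 to 0.42 in the 18 alternatives. Cd22, a lectin that binds sialic acid and is better known from B cells, had 4.48 ± 0.02 and 4.68 ± 0.09, a log2 difference of 0.21 (SE 0.04; limma, adjusted p = 0.0311), at a mean below 1 CPM. The call of Cd22 was lost with the replicate block (limma, adjusted p = 0.104), under quantile normalization (adjusted p = 0.0576) or median centring (adjusted p = 0.0577). It was also lost without any single one of replicates 2 to 6 of Site #2 or 3 to 6 of Site #3, where the largest adjusted p was 0.0757. The difference of Cd22 was 0.18 to 0.23 in the 17 alternatives. At an unadjusted p under 0.05, 8 of the 24 were higher and 0 lower at Site #3 than at Site #2. Of all 22664 genes, 1640 were higher and 1712 lower at that threshold (14.8% in either direction). Without replicate 1 of Site #3 the difference was 0.38 for Itgad, 0.23 for Cd22 and -0.21 for Acsl1, and all 3 passed (limma, adjusted p = 0.0403, 0.0254 and 0.0225). Against Site #1 none of the 3 passed. Itgad had 9.12 ± 0.19 there (SD, n = 5), with a log2 difference of 0.18 for Site #3 (limma, adjusted p = 0.688) and of -0.19 for Site #2 (limma, unadjusted p = 0.0354, adjusted p = 0.705). Cd22 had 4.48 ± 0.08 at Site #1, with a difference of 0.20 for Site #3 (limma, adjusted p = 0.266), and Acsl1 had 11.52 ± 0.08, with a difference of -0.10 (limma, adjusted p = 0.616).

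Neighbours on the chromosome were described next. In the RefSeq annotation of GRCr8, the protein-coding genes on either side of P2rx4 are Camkk2, a calcium-dependent kinase, and P2rx7, and those beside Apoc1 are Apoc4 and Apoe. Apoe, Apoc2 and Apoc4 had no identifier in the tables that gave the symbols and were not analysed here. Of 8 named genes with a start within 500 kb of P2rx4, 0 were called in any limma comparison, beside 0.101% of all genes in Site #1 vs Site #3 and 1.05% in Site #2 vs Site #3. At an unadjusted p under 0.05, 2 were higher and 0 lower at Site #3 than at Site #1, and 2 higher and 1 lower than at Site #2, beside 8.17% and 14.8% of all genes in either direction. Camkk2 had mean log2 values with SD of 11.04 ± 0.14, 11.05 ± 0.13 and 10.98 ± 0.09 at Sites #1, #2 and #3, and Anapc5, a subunit of the anaphase-promoting complex, had 13.13 ± 0.08, 13.08 ± 0.05 and 13.08 ± 0.05. Kdm2b, a histone demethylase, had 9.77 ± 0.04, 9.81 ± 0.04 and 9.86 ± 0.04, and its difference of 0.10 between Site #1 and Site #3 did not pass (limma, adjusted p = 0.330). Orai1 had 8.50 ± 0.08, 8.38 ± 0.11 and 8.46 ± 0.09. The others were Anapc7, of the same complex as Anapc5, Setd1b, a histone methyltransferase, and Hpd, an enzyme of tyrosine breakdown that was below 1 CPM. Of 6 named genes near Apoc1, 0 were called either, and 1 had an unadjusted p under 0.05, against the same shares of all genes. It was Klc3, which was higher at Site #3 than at Site #2 by 0.12 (limma, adjusted p = 0.163). Relb, a subunit of NF-kB, had 6.72 ± 0.10, 6.74 ± 0.08 and 6.73 ± 0.04, and Mark4, a kinase of microtubule-binding proteins, had 11.87 ± 0.04, 11.84 ± 0.06 and 11.88 ± 0.08. Vasp and Zfp111 were measured as well, and Klc3 and Ckm were below 1 CPM.

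**Figure D5:**
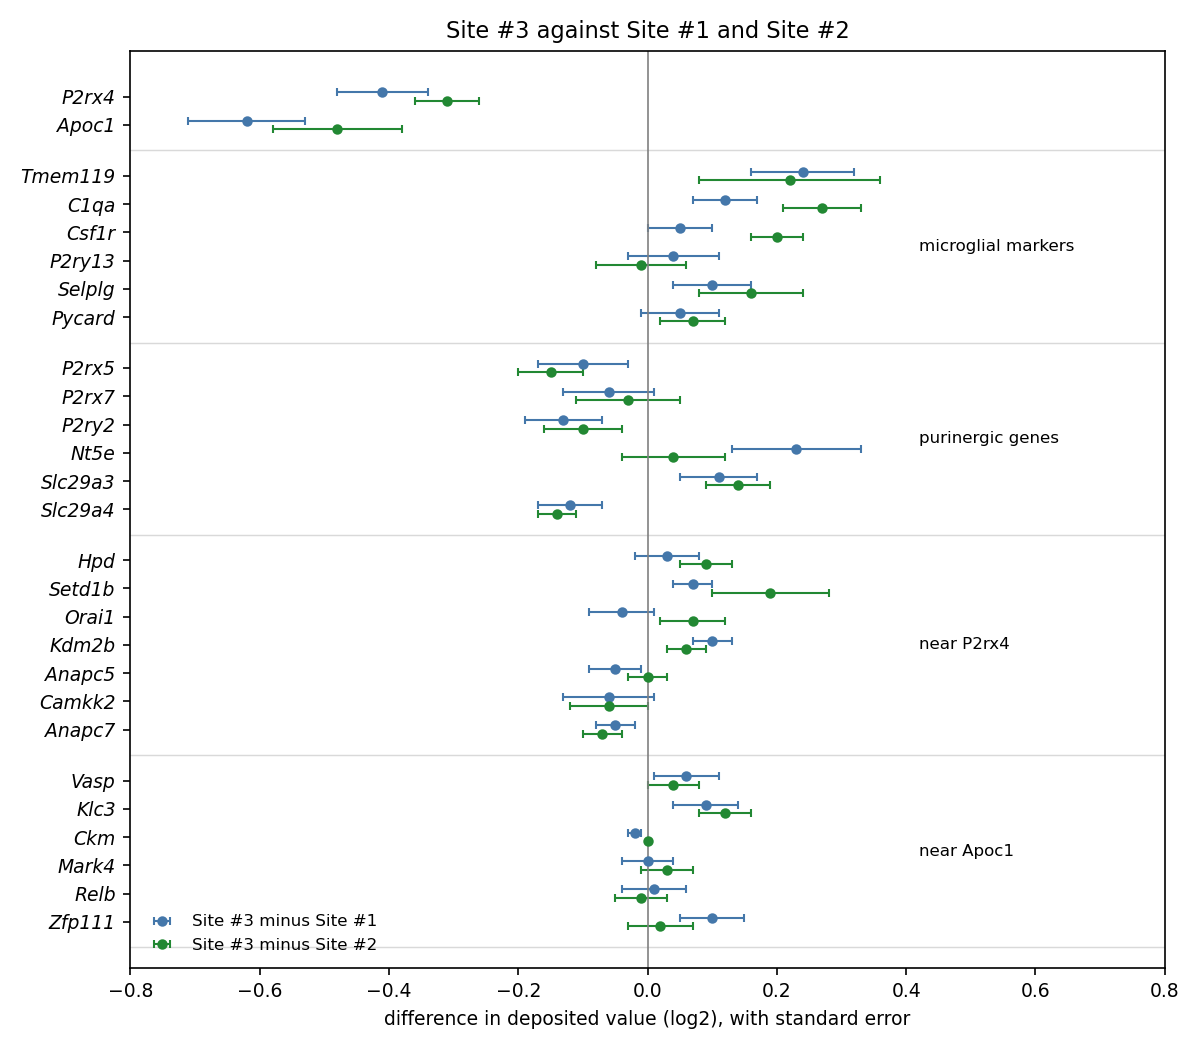
Difference of Site #3 from Site #1 (blue) and from Site #2 (green) on the log2 scale, with standard errors, for P2rx4, Apoc1, microglial markers, other purinergic genes and genes near P2rx4 or Apoc1. P2rx4 and Apoc1 lie between -0.62 and -0.31, and the other genes lie between -0.15 and 0.27.

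Methylation of DNA was measured in the same study by reduced representation bisulfite sequencing, in libraries that were not analysed here. A part of its list of CpG sites that differ between Site #1 and Site #3 was read for positions alone, in rn6 coordinates. P2rx4 has 3 positions there, chr12:39289696, chr12:39305413 and chr12:39310499, all on the minus strand and downstream of the start of the gene. Apoc1 has 1, chr1:80610628, upstream of the start. P2rx7 has 3, chr12:39374323, chr12:39384281 and chr12:39384282, and the last 2 are adjacent bases on opposite strands. The list for Site #1 vs Site #2 has 0 positions for these 3 genes as used here, and the list for Site #2 vs Site #3 was not used here. Both lists used name many other genes. Symbols came only from these lists and from the cell type markers. A gene outside those markers could thus be named only if it was listed, so the presence of positions was fixed beforehand. The share of all genes with a listed position was not computed, and the counts are given as a description.

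Since CpG sites are listed for both genes, the bases before their starts are shown, from RefSeq promoters of GRCr8, with CpG dinucleotides in capitals. The 250 bases before the start of P2rx4 are chr12:39523090-39523339 on the minus strand, and those before the more upstream of 2 annotated starts of Apoc1 are chr1:88478306-88478555 on the minus strand. The listed CpG positions are in another build and were not placed on these windows.
P2rx4: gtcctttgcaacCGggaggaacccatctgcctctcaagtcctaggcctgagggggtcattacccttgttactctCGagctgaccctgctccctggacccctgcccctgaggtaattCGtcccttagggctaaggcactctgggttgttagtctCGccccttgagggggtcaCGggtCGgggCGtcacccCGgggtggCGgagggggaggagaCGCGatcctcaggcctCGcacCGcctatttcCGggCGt
Apoc1: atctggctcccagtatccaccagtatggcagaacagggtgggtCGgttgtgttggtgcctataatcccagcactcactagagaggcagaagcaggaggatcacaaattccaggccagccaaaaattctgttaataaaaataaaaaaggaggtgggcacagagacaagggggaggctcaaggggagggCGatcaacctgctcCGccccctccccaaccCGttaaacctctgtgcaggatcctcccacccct

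The P2rx4 window holds 15 CpG dinucleotides, more than 74.2% of the 33469 promoter windows of the same length, and 64.0% of its bases are G or C. The Apoc1 window holds 4, more than 37.4% of windows, at 54.0% G or C. The median window has 5 CpG dinucleotides and 51.2% G or C. Searched on both strands, the GC box GGGCGG occurs 1 time before Apoc1 and 0 times before P2rx4, and 30.5% of all windows hold it. For PU.1, a transcription factor of macrophages, only the full sequence GAGGAAGT was searched. It occurs in neither window, and 2.04% of all windows hold it. Shorter forms of the site were not counted, so their absence is not shown.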

How the data were processed

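RNA-Seq values of 17 rat hippocampi were analysed, with groups taken from the labels. Per the methods, the authors used Trimmomatic for trimming, HISAT2 for alignment to rn6 and featureCounts to count reads per feature. What the authors deposited is 1 log2 value per Ensembl gene identifier and library, normalized between libraries by a step not given in the sources used here. DESeq2 is named in the methods for differential expression and also in the labels, but not as that step. The values ran from -2.28 to 20.22, with medians of 7.48 to 7.59 in the libraries, and low genes have a compressed spread, so differences may be understated. No counts are kept, so precision is limited by how many rats each site had.

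Of 32494 genes, 9830 were at exactly 0 throughout and were dropped, so 22664 were tested. Each pair of sites was fitted with limma (lmFit and eBayes, trend = TRUE; two-sided) with Benjamini-Hochberg adjustment over all genes and a threshold of 0.05. CPM was approximated from 2 to the power of each value, scaled to an equal sum per library; 13679 genes averaged 1 or more. Correlations used values minus the site mean, with 100000 two-sided permutations within sites, or exact permutation within 1 site. The scripts were tested on simulated data.

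P2rx4, Apoc1 and all gene lists were chosen with earlier results of these data known. Named genes were these 2, the markers Tmem119, C1qa and Csf1r, list members called, purinergic genes, neighbours within 500 kb, and the 5 genes with a symbol most alike in r. Some other list members are named too, and not every gene at the end of its list is. Symbols came from the tables of the study, which pair 1436 of the tested genes, so the lists hold only genes the study had listed. The alternatives were a replicate block, all 17 libraries in one fit, array weights, a CPM filter, quantile normalization, median centring, Spearman correlation and leaving out libraries. Quantile normalization of the likeness was chosen after seeing the data. Software was Python 3.11.15 (pandas 2.3.3, numpy 2.4.6, matplotlib 3.10.9, scipy 1.17.1) and R 4.3.3 (limma 3.58.1).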

Additional observations from a re-analysis of the deposited data

Results flagged for a closer look

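In 93 groups of 5 or 6 libraries, 31 named genes at 3 sites, 6 had a highest or lowest library far from the rest of its site, and chance gives about 1 in 20 groups. P2rx4 had 9.82 in replicate 4 of Site #1, where the next value was 9.54 and the lowest 9.46. P2rx4 also had 9.65 in replicate 3 of Site #2, above a next value of 9.47, and both libraries weigh on its correlations. Mark4 had 11.80 in replicate 4 of Site #1, below a next value of 11.88. Klc3 had 4.30 in replicate 1 of Site #3, above 4.14. Ckm had -0.44 in replicate 5 of Site #1, above -0.53, and was highest in replicate 1 of Site #3 at -0.53, where all libraries round to the same value, and it is below 1 CPM.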

How the results depend on the processing

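P2rx4 and Apoc1 were lower at Site #3 under quantile normalization, median centring and without each library in turn, with P2rx4 at -0.43 to -0.34 against Site #1 and -0.34 to -0.27 against Site #2, and Apoc1 at -0.67 to -0.58 and -0.52 to -0.43. Since no Site #3 library overlaps the others by choice, this direction is no sign of stability. In the comparison of the other sites, their differences had the same sign and did not pass in 17 alternatives each, with adjusted p of 0.647 to 0.905 for P2rx4 and 0.614 to 0.879 for Apoc1 (limma). The correlation of P2rx4 with Apoc1 was 0.30 to 0.54 in 20 alternatives and passed in 0, and 0 of the 6 marker correlations passed in any.

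The counts of called genes moved more. Site #1 vs Site #2 had 0 calls, and 0 to 1 without 1 library (1 without replicate 5 of Site #1 or replicate 1 of Site #2). Site #1 vs Site #3 had 23, 36 in the fit of all 17 libraries, and 9 to 30 without 1 library, with 9 to 15 for each Site #3 library left out. Site #2 vs Site #3 had 239, 482 under the CPM filter, and 81 to 333 without 1 library, with 81 to 153 for each Site #3 library or replicates 2 to 6 of Site #2 left out. Median centring gave 73 higher and 160 lower in place of 120 and 119. Libraries that share a replicate number are different rats and share only that number, and their deviations from the site means did not all correlate, with r from -0.459 to 0.390. With the replicate block the counts were 0, 0 and 43, and Cd22 and Acsl1 had adjusted p of 0.104 and 0.0917 (limma). Fewer samples or genes enter some of these fits, and otherwise the cause was not tested. The depth behind each value cannot be read from the deposited values.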

Other observations

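The other cell type lists gave 0 calls in each limma comparison with Site #3, where 0.101% and 1.05% of all genes were called. The 5 astrocyte markers, Gfap and Slc1a3 among them, had a median log2 difference of -0.01 for Site #3 against Site #1 and 0.08 against Site #2. The 4 neuron markers had medians of -0.09 and -0.02, and 5 markers of other cell types, with Cers2 of oligodendrocytes, had 0.03 and -0.04. Of the 5 genes of border macrophages and Kupffer cells, 4 were below 1 CPM (Cd163, Cd209f, Clec4f and Spic), Stab2 had 6.04 ± 0.14, 6.10 ± 0.15 and 6.12 ± 0.11 at Sites #1, #2 and #3, and the medians were 0.00. Of 8 lymphocyte genes, 7 were below 1 CPM. Cd3e, a chain of the T cell receptor complex, was the exception, with mean log2 values and SD of 8.27 ± 0.43, 7.98 ± 0.47 and 8.67 ± 0.59 at Sites #1, #2 and #3. Of 3 MHC class II genes, RT1-Db1 alone was above 1 CPM, with 6.74 ± 0.28, 6.64 ± 0.23 and 6.72 ± 0.22. At an unadjusted p under 0.05, 1 astrocyte marker was higher and 1 lower at Site #3 than at Site #1 and 2 were higher than at Site #2, 1 neuron marker was lower in each, and 1 lymphocyte gene was higher than at Site #2, where 8.17% of all genes in Site #1 vs Site #3 and 14.8% in Site #2 vs Site #3 had such a p in either direction. In Site #1 vs Site #2 these lists, the microglial, purinergic and lipid lists and the neighbours had 0 calls as well, as had all genes, of which 1527 (6.74%) had an unadjusted p under 0.05. At that threshold 2 of 5 astrocyte markers, 2 of 4 neuron markers, 4 of 24 microglial and myeloid genes and 1 of 6 microglial markers were lower at Site #2 than at Site #1, and 0 of each list were higher. Of all 22664 genes, 728 were lower and 799 higher.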
